A study of Saccharomyces cerevisiae with 6 samples.

Results

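CIS1 (YLR346C) and YGR035C are a small pair of paralogous genes of budding yeast (Saccharomyces cerevisiae), 2 of the 6002 nuclear protein-coding genes of the R64 gene table used here. They were chosen by their names, after peaks in their upstream regions had been seen in these lists, so their peak counts and strengths are given as a description with no test. The peaks counted as theirs were those with a summit within 1000 bp upstream of the annotated start. This gave 2 peaks in the list of Pdr1 replicate 1, 2 in that of Pdr1 replicate 2 and 0 in the Pdr3 list.

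The series holds 6 CUT&RUN libraries of cultures grown in YPD medium. In CUT&RUN an antibody on permeabilised nuclei directs a nuclease to the bound protein, and the released DNA is sequenced. The strain labelled YRP10 gave 2 Pdr1 libraries with an anti-c-Myc antibody and 2 with control rabbit IgG, and the strain labelled Pdr3_3xmyc gave 1 library with each antibody. The labels do not describe the tag of YRP10, and nothing says whether its replicates came from separate cultures. Peak lists of the 3 c-Myc libraries were used, with 792 peaks for Pdr1 replicate 1, 485 for Pdr1 replicate 2 and 7 for Pdr3. No IgG list was used, so the peaks could not be set against peaks of the control antibody. Whether the IgG libraries served as the control in peak calling is not stated. The read depth of every library is unknown.

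Pdr1 and Pdr3 are zinc-cluster transcription factors that bind pleiotropic drug response elements and activate genes for drug efflux pumps and membrane lipid handling. CIS1 is known from the response to failing mitochondrial protein import: Pdr3 induces it, and the Cis1 protein brings the AAA ATPase Msp1 to the import receptor Tom70, where precursors that were not imported are removed. YGR035C encodes a protein of unknown function, and its transcription has been reported to be activated by Yrr1 and Yrm1, other zinc-cluster factors of drug resistance. The genes are held to descend from the ancient duplication of the yeast genome.

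CIS1 spans bases 822287 to 822592 of chromosome XII and YGR035C bases 557072 to 557422 of chromosome VII (R64), both on the C strand, so that their upstream regions lie at higher coordinates. The coding gene next upstream of CIS1 is KAP95 (YLR347C), the karyopherin beta of nuclear import, which points the same way and ends 1235 bp away. The coding gene next upstream of YGR035C is YGR035W-A, an unnamed annotated gene of bases 557565 to 557786 that points away from it, with 142 bp between them. Beyond it lies CAX4 (YGR036C), a dolichyl pyrophosphate phosphatase gene, and 726 bp separate YGR035C from CAX4. On their other side both genes face a gene for the same ribosomal protein: RPL26B (YGR034W) lies directly beside YGR035C, and RPL26A (YLR344W), named here outside the rule on neighbours, lies beyond YLR345W on the CIS1 side.

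Each gene had 1 Pdr1 peak in each replicate within its 1000 bp. A summit was present upstream of 15.5% of all 6002 genes in replicate 1, of 10.2% in replicate 2 and of 8.95% in both. Since the genes were picked for having such peaks, these shares are background and nothing is read from the members' count. Having 1 summit rather than more was the usual case, found for 94.1% of the 931 genes with an upstream summit in replicate 1 and for 96.7% of the 613 in replicate 2.

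The YGR035C peak of replicate 1 covered chrVII:557518-558001, a width of 484 bp, with its summit at base 557786. The peak of replicate 2 covered chrVII:557612-557931, a width of 320 bp, with its summit at base 557772. The replicate 2 peak thus lay wholly inside that of replicate 1, covered 66.1% of it, and had its summit 14 bp away. Both summits fell inside the annotated gene YGR035W-A, that of replicate 1 on its last base. They were not within 1000 bp upstream of any other coding gene, because CAX4 turns its 3′ end to them.

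The CIS1 peak of replicate 1 covered chrXII:822718-823040, a width of 323 bp, with its summit at base 822921. In replicate 2 the peak covered chrXII:822840-823003, a width of 164 bp, with its summit at base 822882. This peak too lay wholly inside that of replicate 1, of which it covered 50.8%, and its summit was 39 bp away. Both CIS1 summits lay in the space between CIS1 and KAP95, inside no coding gene, and CIS1 was the only coding gene with these summits in its 1000 bp. Among the 537 genes with an upstream summit in both replicates, the median gap between the strongest summits of the replicates was 30 bp, with quartiles at 10 and 77 bp. The YGR035C gap of 14 bp lay below this median, the CIS1 gap of 39 bp above it, and both between the quartiles.

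**Figure D1:**
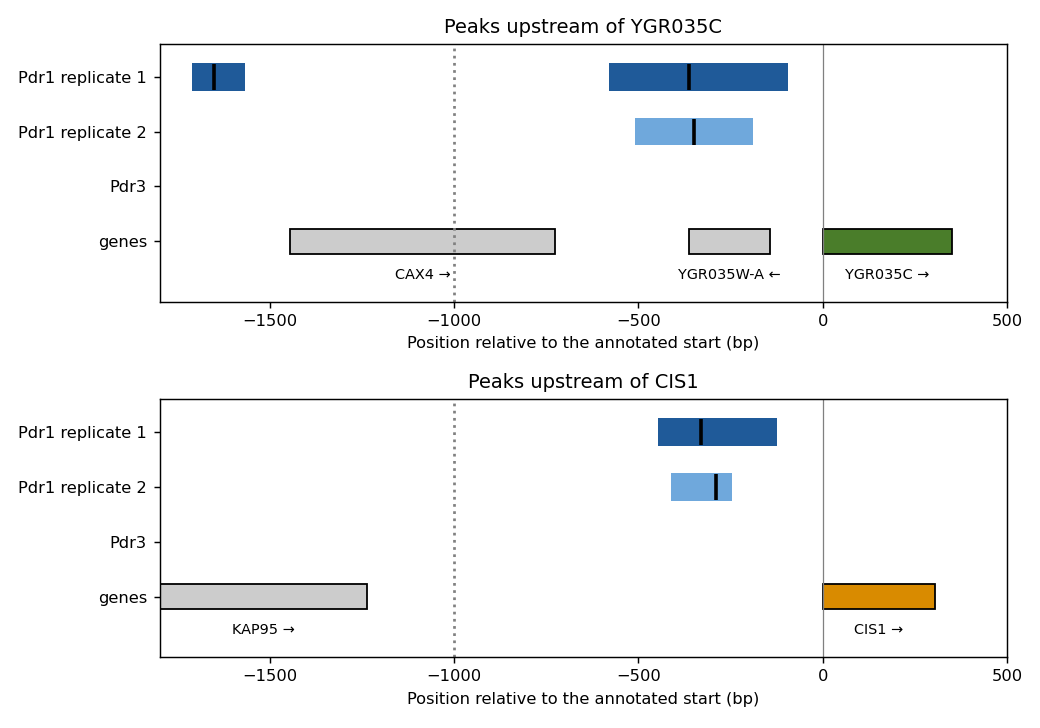
Peaks (bars) and their summits (black marks) in each c-Myc list upstream of YGR035C (above) and CIS1 (below), with position relative to the annotated start in bp, the 1000 bp limit as a dotted line, and coding genes as boxes with arrows for their direction. The replicate 2 peak is nested in the replicate 1 peak at both genes, the YGR035C summits fall inside YGR035W-A, and the Pdr3 rows are empty.

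The peaks stood at similar distances from both genes. The YGR035C summits lay 364 bp upstream of the annotated start in replicate 1 and 350 bp in replicate 2, a mean of 357 ± 9.90 bp (SD, n = 2). The CIS1 summits lay 329 and 290 bp upstream, a mean of 309.5 ± 27.6 bp (SD, n = 2). The YGR035C summits were thus farther out, by 35 bp in replicate 1 and by 60 bp in replicate 2. The difference had the same sign in both lists. With 2 values per gene, chosen with these peaks known, no test was run.

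At both genes the first bases upstream were free of a peak. The near edge of the YGR035C peak was 96 bp from the start in replicate 1 and 190 bp in replicate 2, and its far edge 579 and 509 bp. The CIS1 peak reached from 126 to 448 bp in replicate 1 and from 248 to 411 bp in replicate 2. At both genes the replicate 1 peak was the wider one on either side. All 4 summits lay close to the usual place of a Pdr1 summit in these lists: over all genes with an upstream summit, the strongest was a median of 382 bp from the start in replicate 1 (quartiles 265 and 576.5 bp) and 421 bp in replicate 2 (quartiles 303 and 625 bp). The CIS1 summit of replicate 2 was nearer to the start than the lower of these quartiles, and the other 3 summits lay between a lower quartile and a median.

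**Figure D2:**
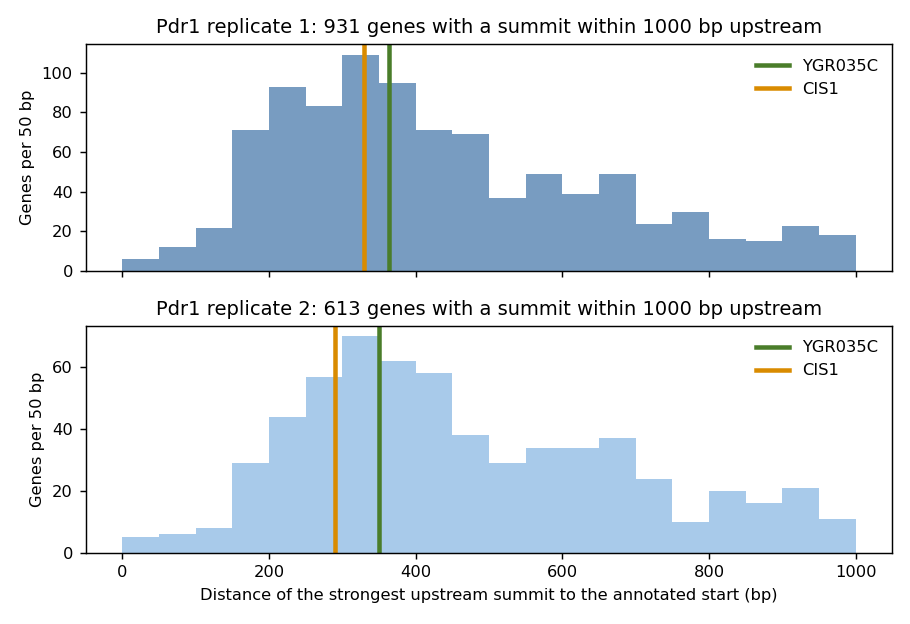
Number of genes per 50 bp by the distance of their strongest upstream summit to the annotated start, in bp, for each Pdr1 replicate, with lines for YGR035C and CIS1. The lines at 364 and 329 bp (replicate 1) and at 350 and 290 bp (replicate 2) stand on the main mass of the 931 and 613 genes.

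In strength the genes differed, and the replicates did not give the same picture. Fold enrichments are the values of the authors' peak caller and were used within a list only. YGR035C had a 13.1-fold peak in replicate 1, rank 23 of 792, and a 15.3-fold peak in replicate 2, rank 7 of 485. It was thus among the strongest 2.90% of the peaks in replicate 1 and the strongest 1.44% in replicate 2. CIS1 had a 14.0-fold peak in replicate 1, rank 19, among the strongest 2.40%. In replicate 2 its peak was 4.63-fold enriched and ranked 263 of 485, below the list's median of 4.85.

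Set against each other within a list, YGR035C had 0.934 times the fold enrichment of CIS1 in replicate 1 and 3.31 times in replicate 2. The order of the genes by fold enrichment was therefore not the same in the replicates. By significance it was: the −log10 q of the YGR035C peak was 209 in replicate 1 and 87.3 in replicate 2, and that of the CIS1 peak 77.0 and 12.4. On this measure YGR035C ranked 6 of 792 and 9 of 485, while CIS1 ranked 43 and 310. Width followed the same order, at 484 bp for YGR035C against 323 bp for CIS1 in replicate 1 and 320 bp against 164 bp in replicate 2. In its own list the YGR035C peak was at least as wide as 81.8% of the peaks in replicate 1 and 70.9% in replicate 2, and the CIS1 peak as wide as 62.5% and 26.6%. With 1 value per gene and list these differences have no error, and no test was run.

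**Figure D3:**
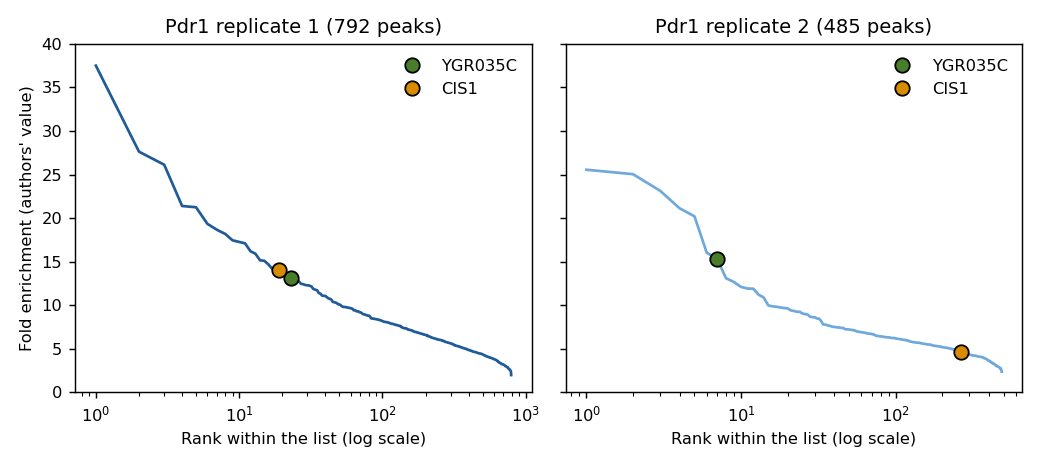
Fold enrichment as given by the authors against rank within the list (log scale) for all peaks of each Pdr1 replicate, with the YGR035C and CIS1 peaks as dots. The dots lie side by side in replicate 1, at ranks 23 and 19, and far apart in replicate 2, at ranks 7 and 263.

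Some other strong replicate 1 peaks had a weak counterpart too, but most of those with a counterpart ranked above CIS1 in replicate 2. The 50 strongest replicate 1 peaks, a number set after the values were seen, include those of CIS1 and YGR035C. Of these 50, 39 overlapped a replicate 2 peak and 11 did not. The strongest overlapping replicate 2 peak had a median rank of 49 over these 39, and 8 of them ranked lower than CIS1. The same counts over all 792 replicate 1 peaks were not computed, so these are a description only. The efflux pump gene PDR10 (YOR328W) was 1 example among the listed drug resistance genes, with rank 3 in replicate 1 and rank 362 in replicate 2.

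The genes most like each member in their Pdr1 ranks were looked for among 526 other genes with an upstream summit in both Pdr1 lists and none in the Pdr3 list. Likeness was the straight-line distance between the within-list percentile ranks, over these 2 libraries. Nearest to YGR035C were IPT1 (YDR072C), which encodes an enzyme of sphingolipid synthesis, and SNF11 (YDR073W), a subunit of the SWI/SNF remodeller, both 1.03 percentile points away. They share 1 divergent upstream region and its peak, of ranks 15 and 6. CAP1 (YKL007W), a subunit of the actin capping protein, followed at 1.40 points, with ranks 12 and 8, a tie with the divergent ceramide synthase gene LAC1, which shares its peak. The IPT1 summits lay 428 bp upstream in both lists and those of CAP1 348 and 332 bp.

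Nearest to CIS1 were YPL088W, a putative aryl alcohol dehydrogenase gene, and RLM1 (YPL089C), the transcription factor of the cell wall integrity pathway, both 5.43 points away. They also share 1 divergent upstream region, with a peak of 11.0-fold in replicate 1 (rank 40) and 4.46-fold in replicate 2 (rank 286). PCL7 (YIL050W), a cyclin of the kinase Pho85, followed at 5.77 points, with ranks 51 and 283, a tie with MMF1, which shares its peak. The YPL088W summits lay 319 and 349 bp from its start, near the CIS1 distances of 329 and 290 bp. YPL088W is also, like YGR035C, a gene reported to rise with activated Yrr1 or Yrm1.

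Pdr3 gave no summit upstream of either gene. Its list of 7 peaks put a summit upstream of 0.167% of the 6002 genes, so a gene without one is the rule. On chromosome XII the only Pdr3 peak was that of TPO1, 738262 bp from the CIS1 start, and chromosome VII held none. A summit in both Pdr1 lists with none in the Pdr3 list was found for 8.78% of all genes, and CIS1 and YGR035C belong to these. Without read counts, a Pdr3 peak that fell short of the authors' threshold cannot be told from no binding. Cultures with impaired mitochondrial import, in which Pdr3 is known to induce CIS1, are not among the labelled conditions. Any effect of that condition on Pdr3 peaks was not tested.

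The other reported Pdr1/Pdr3 targets were used for comparison, as 19 genes listed by name. Of these, 18 had a summit upstream in replicate 1, 14 in replicate 2 (the same 14 as in both) and 6 in the Pdr3 list. Over all 6002 genes the shares were 15.5% in replicate 1, 10.2% in replicate 2, 8.95% in both and 0.167% in the Pdr3 list. The 19 genes were listed with earlier results of these data known, so the counts are a description with no test. The members' pattern, both Pdr1 lists and not Pdr3, was that of 8.78% of all genes and of 8 of the 19. Among these 8 were the transporter genes YOR1, PDR10 and HXT9 and the lipid genes PDR16, IPT1 and RTA1. The others were the proteasome regulator gene RPN4 and the dehydrogenase gene BDH2. The strongest RTA1 summits lay apart, 190 bp upstream in replicate 1 and 651 bp in replicate 2. The 6 listed genes with a Pdr3 summit had Pdr1 peaks of ranks 6 to 125 in replicate 1 and 1 to 56 in replicate 2. CIS1, at rank 19, lay within this range in replicate 1 and, at rank 263, below all 6 genes in replicate 2. YGR035C lay within it in both lists. PDR15 (YDR406W), an efflux pump gene, had Pdr1 peaks of ranks 59 and 10, and TPO1 (YLL028W), a polyamine exporter gene, of ranks 125 and 11. YGR035C, with ranks 23 and 7, stood above both by fold enrichment in each list and had no Pdr3 peak. This was not particular to YGR035C. PDR16, with ranks 1 and 2, and IPT1, with ranks 15 and 6, also stood above both and had no Pdr3 peak. By −log10 q in replicate 2, TPO1 (87.34) was not below YGR035C (87.29). SNQ2, which had a Pdr3 summit, ranked 41 and 9 and so also stood below YGR035C by fold enrichment. By −log10 q SNQ2 stood above YGR035C in both lists.

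**Figure D4:**
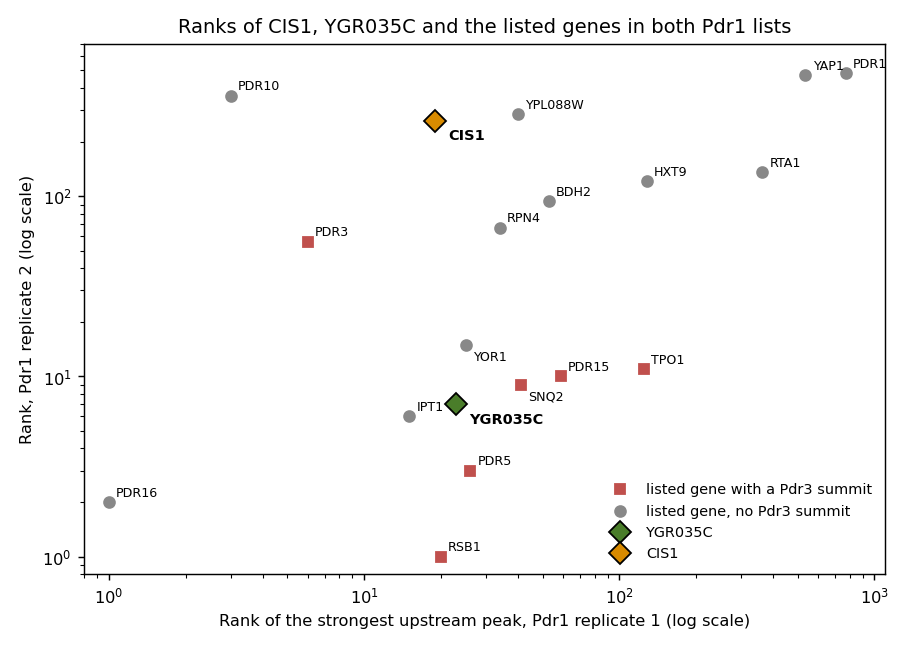
Rank of the strongest upstream peak in Pdr1 replicate 1 (x) and replicate 2 (y), both on log axes with the strongest at rank 1, for YGR035C, CIS1 and the 17 listed genes with a summit in both lists. YGR035C, at ranks 23 and 7, lies among SNQ2, PDR5 and IPT1, while CIS1, at 19 and 263, has YPL088W, at 40 and 286, as its nearest point.

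Of 9 other genes reported to be activated by Yrr1 or Yrm1, as YGR035C is, 5 had a summit upstream in Pdr1 replicate 1, 3 in replicate 2 and 1 in the Pdr3 list. Over all 6002 genes the shares were 15.5%, 10.2% and 0.167%. SNQ2, YOR1 and FLR1 are also among the Pdr1/Pdr3 targets counted above, and the gene with a Pdr3 summit was SNQ2. The genes of this list with a summit in both Pdr1 lists were the pump genes SNQ2 (10.9-fold and 12.6-fold) and YOR1 (12.9-fold and 9.96-fold) and YPL088W. FLR1 (4.04-fold) and SNG1 (4.00-fold), both involved in drug resistance at the membrane, had one in replicate 1 alone. AZR1, YLL056C, YLR046C and YLR179C had none in any list. By fold enrichment YGR035C ranked above each of these 9 genes in both lists, at rank 23 against 25 for YOR1 in replicate 1 and rank 7 against 9 for SNQ2 in replicate 2. By −log10 q the SNQ2 peak was above it in both, since YGR035C had 209 against 282 for SNQ2 in replicate 1 and 87.3 against 161 in replicate 2. YGR035C was not selected independently of these ranks.

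The genes of the factors themselves were looked at in the same way. YRR1 (YOR162C) had a peak in replicate 1 alone, 6.79-fold with its summit 260 bp upstream, and YRM1 (YOR172W) had none. PDR3 (YBL005W) had Pdr1 peaks of ranks 6 and 56 and the strongest Pdr3 peak, PDR1 (YGL013C) peaks of ranks 773 and 483, and YAP1 (YML007W), the oxidative stress factor also named as a regulator of CIS1, peaks of 4.10-fold and 2.78-fold (ranks 536 and 470). The strongest PDR1 summits lay apart, 779 bp upstream in replicate 1 and 330 bp in replicate 2. When only peaks with a −log10 q of 10 or more were kept, 1 of the 5 factor genes had a summit in both Pdr1 lists, against 3 without this filter. Without the filter the share over all 6002 genes was 8.95%. With the filter that share was not computed, and nothing is read from these counts. The partners of Cis1 at the mitochondrial surface, MSP1 (YGR028W) and TOM70 (YNL121C), had no summit upstream in any of the 3 lists. With summits upstream of 15.5% and 10.2% of all genes in the Pdr1 lists, nothing is read from 0 of 2 genes.

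The surroundings of the members also held peaks. The summit nearest to YGR035C outside its window was in replicate 1, 1653 bp upstream, a 4.54-fold peak (rank 457) that lay 207 bp upstream of CAX4. In replicate 2 the next summit upstream was 19240 bp away, at BUD9. For CIS1 the next summit upstream was 4155 bp away in replicate 1, a 3.19-fold peak (rank 685) in front of KAP95, and 99187 bp away in replicate 2, at BDF1. The 1000 bp limit thus had no summit just outside it at either gene, and the members' own summits, at 290 to 364 bp, lay well inside.

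Both RPL26 genes had a peak upstream in both Pdr1 lists, and neither had a Pdr3 peak. This pattern was found for 8.78% of all 6002 genes, and nothing is read from its presence at this pair. The RPL26 genes encode a protein of the large ribosomal subunit. For RPL26B the strongest peak was 5.25-fold enriched in replicate 1 (rank 339) and 3.87-fold in replicate 2 (rank 378), with summits 211 and 219 bp from its start. These summits also lie upstream of the divergent gene TIM21. For RPL26A the peaks were 3.25-fold (rank 679) and 6.10-fold (rank 106), 263 and 249 bp from the start. In replicate 1 each member's peak was the stronger of the neighbours. In replicate 2 this held for YGR035C over RPL26B, at 15.3-fold against 3.87-fold, while the CIS1 peak of 4.63-fold was weaker than the 6.10-fold peak of RPL26A. Between CIS1 and RPL26A, YLR345W had no summit upstream in any list.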

How the data were processed

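CUT&RUN peak lists of 3 c-Myc libraries (Pdr1 replicates 1 and 2, Pdr3) were used, grouped by sample title. The submitters' processing notes name Trimmomatic 0.33, Bowtie2, Picard, deepTools and MACS2 2.1.1 and the builds R64 and sacCer3. Settings, the control used in calling and the handling of reads that map more than once are not stated in these sources. The deposited lists are in narrowPeak format, 1 per sample, with no header. The deposited fold enrichment was read as a linear ratio, whose background is not stated. The deposited −log10 p was not used. The deposited −log10 q served for ranks and a filter. The deposited score was a whole-number form of the same q (10 times −log10 q without its decimals) in 100% of peaks and was not used. The lists hold no counts, so depth and its precision are unknown.

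Positions are counted from 1, and a summit is the deposited start plus offset. Gene models are the RefSeq R64 table, and strand was read from the systematic name. Upstream distance is in bp from the annotated start (the coding start), not from a transcript start. Ranks are by fold enrichment within a list. Window assignment was tested on simulated data. Python 3.11.15 and pandas 2.3.3 were used.

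The members and the 4 gene lists were chosen with earlier results of these data known. The named genes are the members, their direct neighbours, the listed genes and the 3 genes most alike to each member; other names are marked or are genes that share a named summit. The planned searches for response elements and the comparison of the proteins were not run, because no sequence was used here.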

Additional observations from a re-analysis of the deposited data

How the results depend on the processing

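Of 49 recomputed values for the members and for the listed genes as a whole, 38 stayed within the spread between replicates or, for counts and ranks, within 1.5 times the reported value, and 11 did not. Some of the 38 could not have moved. With 2 replicates, the distance in either one always lies within the SD of their mean. Settings that kept the same peaks also returned the same distances. The 38 is therefore not a count of independent checks. Ending the upstream window at the neighbouring coding gene left YGR035C with 0 lists in place of 2, because its summits lie inside YGR035W-A; with that gene left out of the models, a setting added after the data were seen, the count was 2 again. CIS1 had 2 under both. Leaving out either Pdr1 replicate gave 1 list for each member (1 to 1), by construction. Moving all summits by 100 bp to the left or right set the mean distance to 257 or 457 bp for YGR035C and to 209.5 or 409.5 bp for CIS1, also by construction. Ranked by −log10 q, the replicate 1 peak of YGR035C moved from 23 to 6 and that of CIS1 from 19 to 43; the cause was not tested. Windows of 500 bp, a −log10 q of 10 or more, any overlap with the window, summits within 100 bp and a reciprocal overlap of 50% changed no count of lists or regions for either member. The 17 listed genes with a summit in both Pdr1 lists became 12 with 500 bp and 15 with the stricter q. For the lists taken singly, 5 of 32 recomputed counts moved by over 1.5 times. With 500 bp, the Pdr1/Pdr3 targets fell to 9 of 19, against 14, in replicate 2 and in both Pdr1 lists, and the Yrr1/Yrm1 genes with a Pdr3 summit fell to 0, against 1. With the stricter q, the factor genes fell to 2, against 4, in replicate 1 and to 1, against 3, in both Pdr1 lists. The shares of all genes under these settings were not computed. Whether the listed genes lost more summits than genes in general was not tested.

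No paired analysis was possible because lists of c-Myc libraries alone were used, and the numbers are shared with IgG libraries. The Pdr3 library has no replicate, and a peak under the authors' threshold cannot be told from none.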
